A study of Homo sapiens with 4 samples.

Results

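The CCT chaperonin subunits are the 8 protein-coding genes TCP1, CCT2, CCT3, CCT4, CCT5, CCT6A, CCT7 and CCT8, chosen by their symbols alone, and all 8 were found once each among the 51740 genes listed and were among the 23333 that carried an adjusted p-value. RNA was sequenced from HEK293T cells, which descend from human embryonic kidney and express large T antigen of SV40. The cells were wildtype in genotype and crosslinked with formaldehyde before fractionation, with 2 nuclear and 2 cytoplasmic libraries from independent biological replicates, and no unfractionated library was used here. Each library was made from 400 ng of ribodepleted RNA, so that a value gives a share of the RNA of one fraction and not an amount per cell. In bulk RNA of this kind, a fraction with fewer molecules of a transcript and a fraction with more RNA of other kinds cannot be told apart.

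The 8 proteins build TRiC, also called CCT, a barrel of stacked rings in the cytosol in which each subunit occupies a fixed place. Newly made proteins, above all actins, tubulins and many proteins with WD40 repeats, enter the cavity and fold there while the subunits bind and hydrolyse ATP. Every subunit has an equatorial domain that binds the nucleotide, an intermediate domain and an apical domain that meets the client. The subunits also differ: TCP1, CCT2, CCT4 and CCT5 lie together in the ring and bind ATP with higher affinity, whereas CCT3, CCT6A, CCT7 and CCT8 form the side with the lower affinity.

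A stretch that all 8 subunits share is the nucleotide-binding loop of the equatorial domain, and its coding sequence is shown to set the subunits side by side. The loop is given from the GENCODE 44 canonical transcript of each subunit, on the coding strand and 5′ to 3′, with 12 bases on either side, and capitals mark the 12 bases of the loop's core. The pattern of this core does not mark the family by itself. With any base at its variable places, it stood in frame in 379 of 19820 coding sequences searched (1.91%), the 8 subunits included.
TCP1: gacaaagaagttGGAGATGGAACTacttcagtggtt
CCT2: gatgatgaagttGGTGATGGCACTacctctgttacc
CCT3: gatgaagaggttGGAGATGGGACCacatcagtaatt
CCT4: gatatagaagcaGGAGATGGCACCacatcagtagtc
CCT5: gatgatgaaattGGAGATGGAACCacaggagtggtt
CCT6A: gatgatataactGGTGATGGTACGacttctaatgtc
CCT7: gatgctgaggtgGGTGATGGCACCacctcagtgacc
CCT8: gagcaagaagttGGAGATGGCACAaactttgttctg
No stretch of 20 coding bases was shared between the members of any of the 28 pairs of subunits, so that a coding read of 100 bases points to a single one of the 8.

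The deposited values are a mean normalised count over all 4 libraries, a log2 fold change of cytoplasm over nucleus with its standard error, and p-values from DESeq2. Whole-number counts of each library were worked out from the mean, the fold change and its error, and a single solution was found for all 8 subunits and for 97.9% of the tested genes. Which of the libraries of a fraction carries which replicate number was not recovered, and they are therefore called the deeper and the shallower library. Over the genes worked out, which hold 75.0% of all normalised counts, the libraries held 21589325 and 18795466 counts for the nucleus and 16033539 and 14753855 for the cytoplasm. Among the nuclear RNAs used as markers, MALAT1, NEAT1 and KCNQ1OT1 had log2 fold changes of -3.47, -3.09 and -4.25.

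All 8 CCT transcripts were higher in the cytoplasmic fraction, between 3.41-fold for CCT8 and 6.04-fold for CCT7, with a median log2 fold change of 2.21 against -0.12 over all tested genes and 0.11 over tested protein-coding genes. Each of the 8 had an adjusted p-value of at most 0.01 in the authors' DESeq2 table, where 25.9% of all tested genes and 35.6% of tested protein-coding genes were called higher in the cytoplasm. The subunits have high counts, and among the 776 tested protein-coding genes with a mean at least that of CCT8, which had the lowest mean count of the 8, 64.0% were called in this direction and the median log2 fold change was 1.05. In protein-coding genes with a mean over 50 and a genomic span between those of TCP1 and CCT3, the shortest and the longest of the subunits, the median was 0.56 over 5495 genes.

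Among the subunits of the higher-affinity side, TCP1, the subunit that gave the complex its first name, held 2646 and 2855 normalised counts in the deeper and the shallower nuclear library and 13079 and 15158 in the cytoplasmic libraries. It was 5.13-fold higher in the cytoplasm (log2 fold change 2.36, SE 0.11, DESeq2 adjusted p = 2.72e-92). CCT5, which with CCT4 is known to form rings of its own when made alone in bacteria, held 2551 and 2860 in the nuclear and 12374 and 13121 in the cytoplasmic libraries. The nuclear libraries of both genes lay far below the cytoplasmic ones, with no overlap. CCT5 was 4.71-fold higher in the cytoplasm (log2 fold change 2.24, SE 0.11, DESeq2 adjusted p = 1.71e-90). CCT4 held 2835 and 3142 normalised counts in the nucleus and 12401 and 14873 in the cytoplasm, a 4.56-fold difference (log2 fold change 2.19, SE 0.12, DESeq2 adjusted p = 1.36e-71). The spread between the CCT4 libraries of the cytoplasm was small beside the distance between the fractions. CCT2, which is also known as a receptor for the autophagy of aggregated proteins, held 2003 and 2293 in the nucleus and 8374 and 7955 in the cytoplasm. Its difference was 3.80-fold (log2 fold change 1.93, SE 0.11, DESeq2 adjusted p = 1.74e-62), and it was the lowest of the higher-affinity subunits.

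The lower-affinity side held both ends of the order. CCT7 held 2758 and 3136 normalised counts in the nuclear libraries and 16364 and 19217 in the cytoplasmic libraries, from 3699, 3729, 13956 and 14501 counts. It had the highest fold change of the 8, 6.04-fold with a 95% interval of 5.13 to 7.10 (log2 fold change 2.59, SE 0.12, DESeq2 adjusted p = 3.14e-102). CCT3 gave the most counts of the 8 in each library, with 4841 and 5325 normalised counts in the nucleus and 26921 and 28516 in the cytoplasm. The difference for CCT3 was 5.45-fold (log2 fold change 2.45, SE 0.11, DESeq2 adjusted p = 2.32e-118). CCT6A held 1950 and 2193 in the nucleus and 6960 and 7741 in the cytoplasm, and was 3.55-fold higher in the cytoplasm (log2 fold change 1.83, SE 0.12, DESeq2 adjusted p = 7.21e-54). Both nuclear libraries of CCT6A lay below both cytoplasmic ones, as for the other subunits. CCT8 held 1842 and 2072 normalised counts in the nucleus and 6485 and 6843 in the cytoplasm, from 2470, 2464, 5531 and 5164 counts. It had the lowest fold change, 3.41-fold with a 95% interval of 2.92 to 3.98 (log2 fold change 1.77, SE 0.11, DESeq2 adjusted p = 3.70e-53).

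**Figure D1:**
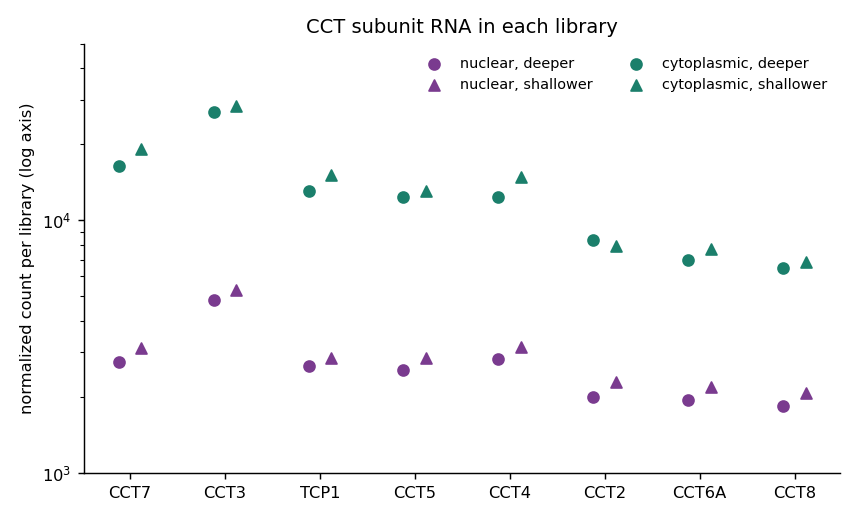
Normalised counts of the 8 CCT subunits in each of the 4 libraries, worked out from the deposited values, on a log axis, with circles for the deeper and triangles for the shallower library of each fraction. In all 8 genes both cytoplasmic libraries lie above both nuclear libraries, and the libraries of a fraction lie close together.

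In all 8 genes both cytoplasmic libraries lay above both nuclear ones, which held for 40.7% of the tested genes with counts worked out and for 48.5% of those with a mean over 50. The coefficient of variation between the libraries of a fraction was 5.37% to 9.55% in the nucleus and 3.63% to 12.8% in the cytoplasm. With 2 libraries against 2, an exact permutation test of a single gene cannot give a two-sided p below 0.333, so that the calls rest on the spread that DESeq2 shared across genes. In limma on log2(normalised count + 1) of the worked-out counts, over genes with a mean over 50, all 8 were called, the log2 fold changes ran from 1.77 to 2.59 and the adjusted p-values from 3.69e-14 to 2.31e-12, where 42.6% of the genes tested were called higher in the cytoplasm. All 8 were also called in that fit with any 1 library left out, where 40.4% and 40.6% of genes without the deeper and the shallower nuclear library, and 41.4% and 40.8% without the deeper and the shallower cytoplasmic library, were called higher in the cytoplasm. A block for pairs of libraries, deeper with deeper (41.7% called higher in the cytoplasm) or deeper with shallower (43.9%), also left all 8 called. Each subunit passed the stricter and looser rules tried on the deposited table too, which were Bonferroni adjustment (18.8% of tested genes called higher in the cytoplasm), an adjusted p of at most 0.05 (28.7%), the threshold of 0.01 with an absolute log2 fold change over 0.5 and a mean over 50 (23%), a Wald test of the excess over a log2 fold change of 1 (11.4%) and centring on the median protein-coding gene (24.2%). Limma without a filter on the mean called all 8 with 4 libraries (29% called), without the deeper cytoplasmic (24.1%) and without the shallower cytoplasmic library (23.8%), but called 0 of 22835 genes without the deeper or without the shallower nuclear library. In those fits 13376 and 13608 genes had a limma p of at most 0.05 before adjustment, and the subunits had adjusted p-values up to 0.0198.

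The authors' size factors give the fractions unequal totals of normalised counts. With the totals set equal, each log2 fold change fell by 0.66, the median of the 8 became 1.55, and the lowest, CCT8, became 1.11 on the log2 scale, with all 8 still called. With this scaling 16.2% of tested genes were called higher in the cytoplasm and 38.3% higher in the nucleus. Against other protein-coding genes the order does not depend on scaling: 5.33% of those tested had a higher log2 fold change than CCT7 and 15.0% a higher one than CCT8.

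**Figure D2:**
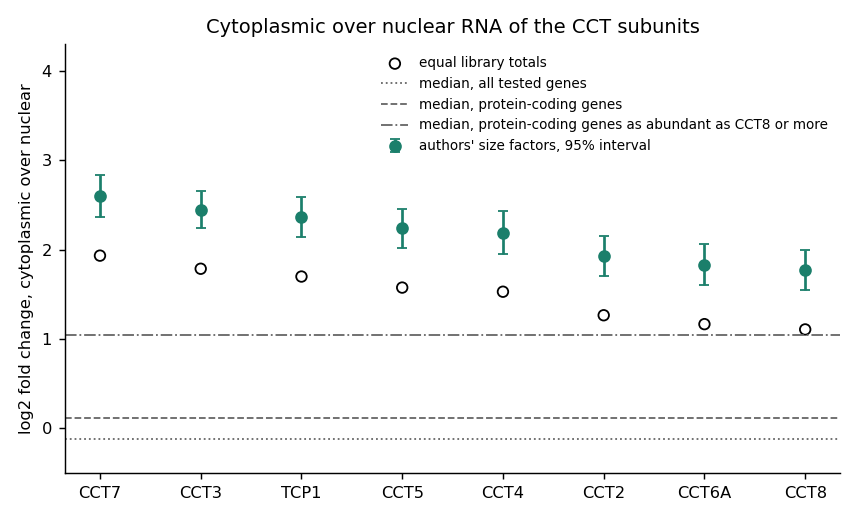
Log2 fold change of cytoplasm over nucleus for each CCT subunit with its 95% interval from the deposited DESeq2 standard errors, in descending order from CCT7 (2.59) to CCT8 (1.77), with open circles for the values with equal totals and lines at the medians of all tested genes (-0.12), of tested protein-coding genes (0.11) and of protein-coding genes with a mean at least that of CCT8 (1.05). All intervals lie above the 3 medians, those of genes next to each other in the order overlap, and with equal totals CCT8 (1.11) comes close to the highest line, which is drawn with the authors' size factors.

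The 8 transcripts differed among themselves by less than they differed from the median of all tested genes or of tested protein-coding genes. Against the median of 1.05 over protein-coding genes with a mean at least that of CCT8, this did not hold for every subunit. CCT8, at 1.77, lay nearer to that median than to CCT7, at 2.59. In descending order of log2 fold change they ran CCT7, CCT3, TCP1, CCT5, CCT4, CCT2, CCT6A and CCT8. Of the 28 pairs, 9 differed in a Wald test of the difference of the deposited log2 fold changes, with Benjamini-Hochberg adjustment over the 28 pairs and a threshold of 0.01. The widest was CCT7 against CCT8, a difference of 0.83 on the log2 scale with a 95% interval of 0.50 to 1.15. CCT7 also exceeded CCT6A by 0.77 and CCT2 by 0.67, CCT3 exceeded CCT8 by 0.68, CCT6A by 0.62 and CCT2 by 0.52, and TCP1 exceeded CCT8 by 0.59 and CCT6A by 0.53. The smallest difference called was that of CCT5 over CCT8, 0.47 with a 95% interval of 0.16 to 0.78. No neighbours in the order differed beyond their error, with adjusted Wald p-values from 0.177 for CCT4 against CCT2 to 0.777 for CCT5 against CCT4 and intervals that reached no further than 0.59 on the log2 scale. The test treats the estimates of a pair as independent although they come from the same libraries. With the standard errors raised by 1.5 times, 0 pairs passed 0.01, 5 passed 0.05 and the smallest adjusted Wald p was 0.0244, while 9 pairs had a p at most 0.05 before adjustment.

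The make-up of the summed CCT counts shows these differences without any scaling between libraries. Together the subunits held 28732 and 28394 counts in the nuclear libraries and 87809 and 85589 in the cytoplasmic ones, and made up 0.125% of the normalised counts of the nucleus and 0.377% of those of the cytoplasm. Their summed normalised counts were 4.78-fold higher in the cytoplasm. CCT3 made up 22.6% and 22.3% of the sum in the nuclear libraries and 26.1% and 25.1% in the cytoplasmic ones. CCT7 made up 12.9% and 13.1% in the nucleus and 15.9% and 16.9% in the cytoplasm. Both therefore held a larger share of the family in the cytoplasm in each library. CCT2 went from 9.35% and 9.60% in the nucleus to 8.13% and 7.01% in the cytoplasm, CCT6A from 9.10% and 9.19% to 6.76% and 6.82%, and CCT8 from 8.60% and 8.68% to 6.30% and 6.03%. These 3 held a smaller share in each cytoplasmic library. TCP1 was at 12.35% and 11.96% against 12.70% and 13.36%, CCT4 at 13.23% and 13.16% against 12.04% and 13.11%, and CCT5 at 11.91% and 11.98% against 12.02% and 11.57%. The shares of CCT5 overlapped between fractions, and those of CCT4 came close to overlap. The shares of a library add up to a whole, so larger shares of some subunits bring smaller shares of others. CCT7 held 1.498 and 1.513 counts for each count of CCT8 in the nuclear libraries and 2.523 and 2.808 in the cytoplasmic ones. The corresponding ratio of CCT3 to CCT8 was 2.63 and 2.57 in the nucleus and 4.15 and 4.17 in the cytoplasm. These shares use the same counts as the pair tests and are given as a description.

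**Figure D3:**
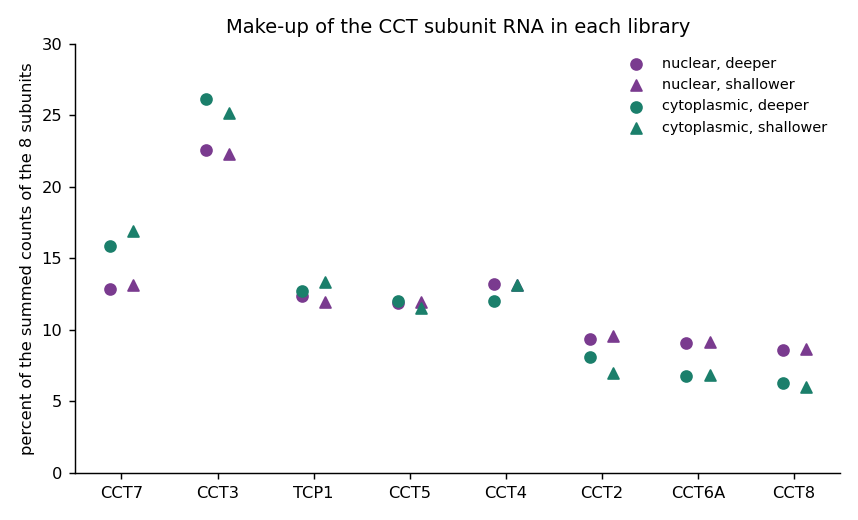
Share of the summed counts of the 8 CCT subunits that each subunit holds, in percent, in the deeper (circles) and shallower (triangles) nuclear and cytoplasmic libraries. CCT3 and CCT7 hold larger shares in both cytoplasmic libraries than in both nuclear ones, and CCT2, CCT6A and CCT8 smaller shares.

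The libraries of a fraction were not fully alike. In the nucleus all 8 subunits were higher in the shallower library, by a median of 0.17 on the log2 scale, where genes called higher in the cytoplasm differed by a median of 0.07 in the same direction and genes called higher in the nucleus by -0.07. NEAT1 and KCNQ1OT1 went the other way, by -0.28 and -0.35. In the cytoplasm 7 of 8 subunits were higher in the shallower library, with a median of 0.12, and CCT2 was lower. There 65.8% of genes called higher in the cytoplasm were also higher in the shallower library, with a median of 0.065. The share was 58.4% among tested genes with a mean over 50. In the nucleus the corresponding shares were 66.1% and 49.5%. Apart from CCT2 in the cytoplasm, the subunits thus shifted as most genes called higher in the cytoplasm did. The shift was far smaller than the difference between fractions, and its part in the fold changes was not tested. The sum of the 8 was between 4.31-fold and 5.29-fold higher in the cytoplasm over the 4 combinations of a nuclear with a cytoplasmic library.

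Counts rise with transcript length, so the levels of different subunits were compared per kb. Per kb of annotated exon, CCT3 had the highest level in both fractions, at 1315 normalised counts per kb in the nucleus and 7174 in the cytoplasm. CCT4 followed at 1106 and 5049, and CCT7 at 822 and 4962. TCP1 stood at 563 and 2891. In the cytoplasm the remaining 4 lay close together, CCT5 at 2261, CCT8 at 1995, CCT2 at 1930 and CCT6A at 1911 normalised counts per kb. In the nucleus the same 4 were at 480, 586, 508 and 539. The highest level was thus 2.74 times the lowest in the nucleus and 3.75 times in the cytoplasm. The assembled complex holds the subunits in equal number, but this concerns the proteins, which were not measured here. The counts took in intronic as well as exonic reads. Reads of unspliced RNA are therefore part of the level per kb of exon, and their share cannot be read from the deposited values. The level per kb also depends on the length used. Per kb of gene span, the ratios were 2.84 and 3.40 and TCP1 was highest. Per kb of the canonical transcript they were 3.21 and 4.93. Per kb of exon outside any other annotated gene they were 6.21 and 7.53, with CCT4 highest at 3152 and 14385.

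**Figure D4:**
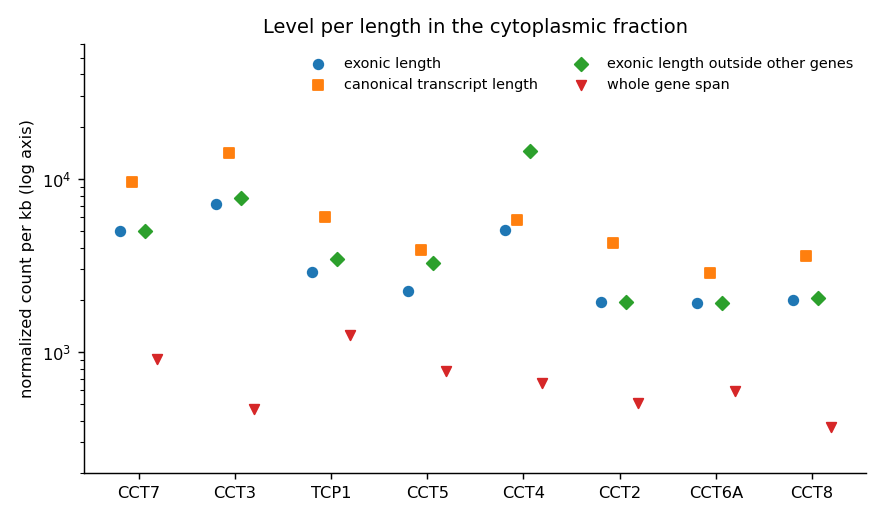
Level of each CCT subunit in the cytoplasmic fraction in normalised counts per kb on a log axis, with 1 symbol for each way of measuring length. Per kb of exon CCT5, CCT8, CCT2 and CCT6A lie between 1911 and 2261 and CCT3 is highest, while CCT4 rises to 14385 when exon inside other genes is left out.

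That last length matters for genes that lie across others, because the annotation behind the deposited counts left out stretches covered by more than 1 gene. On hg38 in GENCODE 44, CCT4 spans chr2:61868085-61888671 on the minus strand, and only 35.1% of its exonic bases lie outside other genes, chiefly because the antisense long noncoding RNA ENSG00000236498 covers 73.8% of the exons of its canonical transcript. CCT5 (chr5:10249929-10266389, plus strand) has 69.2% of its exonic bases outside other genes, and the antisense RNA ENSG00000271980 covers 52.7% of its canonical exons. TCP1 (chr6:159778498-159789703, minus strand) has 84.3%, and meets ACAT2, an acetyl-CoA acetyltransferase gene on the opposite strand, over 26.1% of its canonical exons. ACAT2 had a mean of 1489 normalised counts and a log2 fold change of 2.56 (SE 0.14, DESeq2 adjusted p = 1.37e-77), in the same direction as TCP1. The antisense partners of CCT4 and CCT5 were barely counted, with means of 6.70 and 2.39 normalised counts and DESeq2 adjusted p-values of 0.70 and 0.585. Whether the counting or the removal of shared stretches used strand is not given in the sources used here. It is therefore not known whether reads in these overlaps were left out or assigned to one of the genes.

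The other subunits have few such overlaps. CCT3 (chr1:156308968-156367873, minus strand) spans 58.9 kb, of which the canonical transcript covers 29.3 kb, and shares its locus with TSACC, a gene on the opposite strand with 32.8 normalised counts and a log2 fold change of 0.51 (DESeq2 adjusted p = 0.428). ENSG00000286018, an antisense RNA within CCT8, had a mean of 1.67 normalised counts (DESeq2 adjusted p = 0.481). CCT7 lies at chr2:73233420-73253021 on the plus strand with 12 exons, CCT2 at chr12:69585426-69601570 on the plus strand with 16, CCT6A at chr7:56051685-56063989 on the plus strand with 14, and CCT8 at chr21:29055805-29073797 on the minus strand with 15. Introns of TCP1 hold the small nucleolar RNA genes SNORA20 and SNORA29, and the CCT6A locus holds SNORA22B and SNORA15, none of which was found in the deposited table by its identifier.

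Near-identical copies elsewhere in the genome can also take or give reads. No window of 100 bases of the canonical transcripts of CCT2, CCT3, CCT6A, CCT7 or CCT8 was found in another gene's transcripts, and the windows of TCP1 (15.8%), CCT4 (8.30%) and CCT5 (51.2%) that were shared were those of the overlapping genes. At 50 bases, 7.61% of the windows of CCT6A and 11.4% of those of CCT8 were shared, led by the pseudogenes CCT6P3 and CCT8P1. Of the 12 listed pseudogenes whose symbols are built on a subunit's, with the A of CCT6A dropped, 10 had a mean above 0 and 5 an adjusted p-value. Of these 5, none was called higher in the cytoplasm, 2 were called higher in the nucleus, where 26.5% of all tested genes were called, and 3 were not called.

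CCT6A has 4 near copies with an adjusted p-value, CCT6B and the pseudogenes CCT6P1, CCT6P2 and CCT6P3. Its coding bases 241 to 300, which hold the nucleotide-binding loop, are set beside those of the 3 copies with the most counts to show how alike the sequences are. Capitals mark bases that differ from CCT6A in an alignment of the GENCODE 44 transcripts on hg38, all on the sense strand.
CCT6A: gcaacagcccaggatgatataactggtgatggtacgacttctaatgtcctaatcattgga
CCT6B: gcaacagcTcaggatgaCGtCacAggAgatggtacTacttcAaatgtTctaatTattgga
CCT6P1: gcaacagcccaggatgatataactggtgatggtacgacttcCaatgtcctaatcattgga
CCT6P3: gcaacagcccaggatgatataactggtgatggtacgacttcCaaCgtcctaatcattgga
Over the coding sequence CCT6B was identical to CCT6A at 80.7% of aligned bases, CCT6P1 at 94.7% and CCT6P3 at 95.2%. CCT6B, the form of this subunit known from the testis, held 146 and 163 counts in the nuclear libraries and 57 and 35 in the cytoplasmic ones, with a log2 fold change of -1.11 (SE 0.36, DESeq2 adjusted p = 0.00376). The transcribed pseudogene CCT6P1 held 692 and 607 counts in the nucleus and 179 and 135 in the cytoplasm, with a log2 fold change of -1.40 (SE 0.20, DESeq2 adjusted p = 4.06e-12). CCT6P3 held 668 and 504 in the nucleus and 56 and 56 in the cytoplasm, with a log2 fold change of -2.72 (SE 0.24, DESeq2 adjusted p = 4.22e-28). These 3 copies thus lay on the other side of 0 from CCT6A, whose counts were 2615, 2608, 5936 and 5841 in the same order of libraries. CCT6P2 held only 1, 2, 3 and 2 counts and was not called (DESeq2 adjusted p = 0.586), with a log2 fold change of 1.36 on the same side as CCT6A. CCT4P2, a copy of CCT4, held 12 and 11 counts in the nucleus and 0 and 0 in the cytoplasm and was not called (DESeq2 adjusted p = 0.0132).

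The genes that work with the chaperonin were taken from lists built on their known roles, and their calls stand against 25.9% of tested genes and 35.6% of tested protein-coding genes called higher in the cytoplasm. The most distant relatives of the subunits are the chaperonin-like proteins of Bardet-Biedl syndrome, which help assemble the BBSome, a complex of ciliary transport. BBS12, BBS10 and MKKS were higher in the cytoplasm, with log2 fold changes of 1.73, 1.03 and 0.60, so that with CCT6B 3 of the 4 relatives tested were called cytoplasmic and 1 nuclear. CCT8L2 was listed at 0. With equal totals MKKS turned to -0.058 and BBS10, at 0.37, was no longer called, so that 1 relative was then called higher in the cytoplasm.

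Prefoldin carries unfolded actin and tubulin to the chaperonin, and all 6 of its subunits were called higher in the cytoplasm, with a median log2 fold change of 1.69. PFDN5 had 2.87, PFDN6 2.20, PFDN4 1.82, VBP1 1.57, PFDN2 1.25 and PFDN1 0.47. PFDN1, the lowest, held 800 and 879 normalised counts in the nucleus and 1298 and 1028 in the cytoplasm, and turned to -0.19 on the log2 scale with equal totals. The range over the prefoldin genes was thus wider than that over the CCT subunits.

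Among the phosducin-like and thioredoxin-like co-chaperones, which bind the chaperonin together with its clients, PDCL3 (1.97) and PDCL (1.41) were called higher in the cytoplasm. TXNDC9 had a log2 fold change of 0.51 and was not called (DESeq2 adjusted p = 0.0122), and it turned to -0.15 with equal totals. PDCL2 was called higher in the nucleus on few counts, 30 and 39 in the nuclear and 1 and 1 in the cytoplasmic libraries. The tubulin cofactors, which take tubulin after it leaves the chaperonin, were divided. TBCB (2.82) and TBCC (2.73) were called higher in the cytoplasm, while TBCA (-0.45), TBCD (-0.47) and TBCE (-0.96) were called higher in the nucleus. TBCA held 3210 and 2794 normalised counts in the nucleus and 2398 and 1997 in the cytoplasm.

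The clients of the chaperonin were mostly higher in the cytoplasm as well. Of tested protein-coding genes with a mean over 50, 43.6% were called higher in the cytoplasm. The share was 64.0% among those with a mean at least that of CCT8. Most of the actin and tubulin genes had a mean that high, while most of the clients with WD40 repeats and other folds had a lower one. All 11 actin and tubulin genes tested were called in that direction, with a median log2 fold change of 2.68, from 1.20 for TUBB6 to 3.36 for ACTG1. Of 13 clients with WD40 repeats and other folds, 10 were called higher in the cytoplasm, 2 higher in the nucleus and 1 was not called, with a median of 1.04 and a range from -1.60 for PPP2R2A, a regulatory subunit of protein phosphatase 2A, to 2.82 for GNB2, a G protein beta subunit. In this list GNB1, another G protein beta subunit, turned from 0.45 to -0.21 with equal totals. FZR1, an activator of the anaphase-promoting complex, turned from 0.31 to -0.35, and both are named for this change. STAT3 and WRAP53, at 0.16 and 0.37 with equal totals, kept their sign but were no longer called. In the list of 11 other cytosolic and mitochondrial chaperone genes all were called higher in the cytoplasm. The median was 1.59, with a range from 0.97 for HSPH1 to 2.62 for HSPE1. This list of 11 counts HSF1, which is a heat shock transcription factor and not a chaperone. With equal totals HSPH1 fell to 0.30 and HSF1 to 0.31, and neither was called any longer. The median of the CCT subunits, 2.21, lay between those of this list and of the actin and tubulin genes, and no difference between lists was tested.

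**Figure D5:**
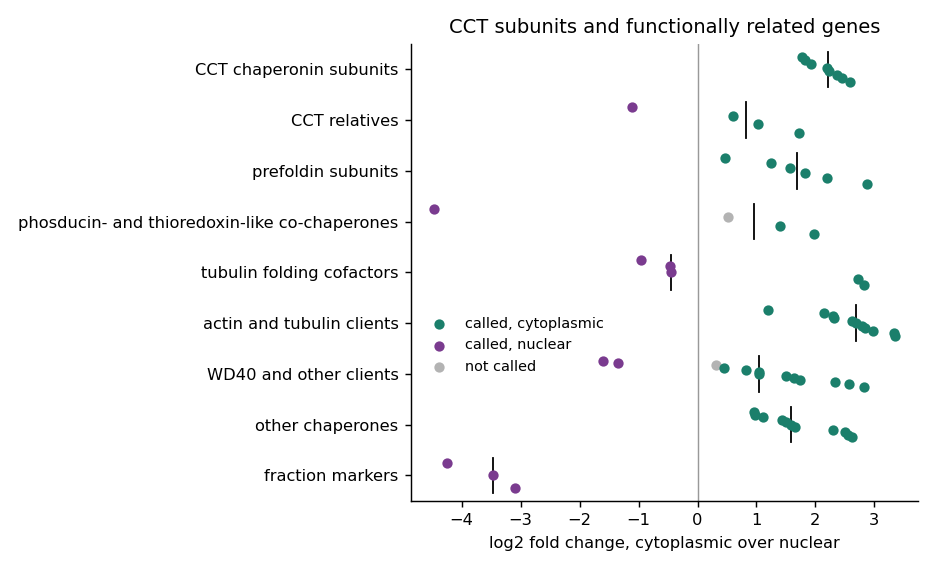
Log2 fold change of cytoplasm over nucleus for each tested gene of the CCT family and of the lists of related genes, 1 point per gene, coloured by its call, with a bar at the median of each list. The 8 CCT subunits lie between 1.77 and 2.59, all 6 prefoldin genes lie above 0, and the tubulin cofactors lie on both sides of 0.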

How the data were processed

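RNA of 2 nuclear and 2 cytoplasmic fractions of HEK293T cells was sequenced as paired reads of 100 nt from a stranded, ribodepleted kit. Per the study's methods and the labels, the authors aligned reads to hg38 with STAR, counted exons and introns with featureCounts 2.0.2 on an earlier GENCODE release extended with NCBI genes, from which stretches under more than 1 gene and readthrough transcripts had been removed, and compared fractions with DESeq2. The deposited table holds the mean over all 4 libraries as a normalised signal, a log2 fold change with its log2 standard error, a Wald statistic, which is a score, and p-values, raw and adjusted; it has 51740 rows, and 0 columns of values per library. These columns of the authors' own DESeq2 fit are the only measurements in the table, so the edgeR test planned for counts was replaced by their Wald test with Benjamini-Hochberg adjustment over 23333 genes and their threshold of 0.01.

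Counts per library were worked out as the whole numbers that, with the size factors found from the steps between low values (1.34, 1.19, 0.853 and 0.755), give the deposited mean, fold change and error. A single solution was found for 31980 of 32448 genes searched (98.6%), and size factors recomputed from these counts differed by at most 0.0832%. In a check, 8 of 1825 searches from altered values (0.438%) found a solution. For the 8 subunits, 11 of 160 searches from a moved fold change found one. These were 3 of 20 each for CCT3 and CCT4 and at most 1 of 20 for each other subunit. The counts per library of CCT3 and CCT4 are therefore less certain than those of the others. These counts, and the limma 3.58.1 (R 4.3.3) fits on them, were chosen after the data were seen, and were tested on simulated data. Intervals are 95% and cover the fitted error, not counting of molecules, since reads carried no molecular identifiers.

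Coordinates, lengths and sequences are from GENCODE 44 on hg38. The members and lists were chosen with earlier results of these data known. All 8 subunits are named. From each of the 7 lists the genes with the highest and the lowest fold change are named, from lists of 6 or fewer all genes, and of the pseudogenes the 3 with the highest mean that carry an adjusted p-value. GNB1, FZR1, STAT3, WRAP53 and HSF1 are named beyond this rule. Genes across a subunit are named where they have a value. NEAT1, KCNQ1OT1, MALAT1 and MEG3, which was not tested, were the markers. TBCE stands on 2 rows, of which the one with the higher mean was used. Alternatives were other scalings, thresholds, lengths and errors, and leaving out each library.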

Additional observations from a re-analysis of the deposited data

How the results depend on the processing

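The direction of each CCT subunit held under every alternative run, and all 8 stayed called with equal totals, centring on protein-coding genes, Bonferroni adjustment, the other thresholds, a Wald test against a log2 fold change of 1 and limma with all 4 libraries. The median of the 8 fell from 2.21 to 1.55 with equal totals. With any 1 library left out, log2 fold changes in limma ran from 2.25 to 2.46 for TCP1, 1.83 to 2.03 for CCT2, 2.38 to 2.52 for CCT3, 2.05 to 2.32 for CCT4, 2.16 to 2.32 for CCT5, 1.74 to 1.91 for CCT6A, 2.48 to 2.71 for CCT7 and 1.68 to 1.85 for CCT8. All 8 stayed called over genes with a mean over 50, at adjusted p-values up to 4.76e-10. Without that filter, and without either nuclear library in turn, limma called 0 of 22835 genes, so that 0 to 8 subunits were called over these fits, with subunits at adjusted p-values of up to 0.0198; the lone library left is assumed to vary like the others.

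The alternatives were tallied over overlapping genes, pseudogenes and a part of the related genes. Of the values tallied, 470 stayed on their side of the threshold, 98 dropped below it, 12 rose past it and 2 that had been called changed sign. In all, 6 values changed sign, called or not. GNB1, which was called, and FZR1, which was not, were outside this tally and also changed sign with equal totals. With standard errors raised by 1.5 times, 0 of 28 pairs differed at 0.01. With the deposited errors and a threshold of 0.05, 13 pairs differed. With equal totals, MKKS turned to -0.058, PFDN1 to -0.19 and, among genes not called, TXNDC9 to -0.15, and 1 relative of the subunits was called higher in the cytoplasm in place of 3. The ratio of the highest to the lowest level per kb became 6.21 in the nucleus and 7.53 in the cytoplasm outside other genes, 3.21 and 4.93 per canonical transcript, and 3.40 in the cytoplasm per gene span.

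Which libraries share a replicate number is not known, since none of the columns bears one, so both pairings were fitted in limma as a replicate block. All 8 subunits stayed called in either, with a median log2 fold change of 2.21, where 5713 genes (deeper paired with deeper) and 6013 (deeper with shallower) were called higher in the cytoplasm against 5838 without the block. The planned edgeR fits, which needed counts per library in the file, were not run. With 2 libraries a fraction, the p-values rest only on the spread between these libraries, which DESeq2 and limma shared across genes.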
